A study of Caenorhabditis elegans with 66 samples.

Results

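The genes described here encode the proteins of the cytosolic ribosome of the nematode Caenorhabditis elegans. They were taken as all protein-coding genes in the WBcel235 annotation whose symbol begins with rpl- (proteins of the large ribosomal subunit) or rps- (proteins of the small subunit). There are 78 of them, 48 rpl- and 30 rps- genes, among 19983 protein-coding genes and 46926 annotated genes. A gene was counted as having a peak in a library when a peak summit, the base where the peak caller placed the maximum, lay within 200 bp of either end of the gene. The annotation table used gives no strand, exons or UTRs, so the end near a summit cannot be named as the start or the stop of the gene.

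Chromatin immunoprecipitation with sequencing (ChIP-seq) was done on 3 FLAG-tagged proteins (SNPC-4, SNPC-1.2, SNPC-1.1), and the study holds 33 immunoprecipitated (IP) libraries in 11 groups of 3, each with an input library. In the first dataset, whole gravid adults at 72 h carried snpc-1.2::3xflag together with Psun-1::tir1 and snpc-4::aid (called SNPC-4 AID here) or snpc-1.2::3xflag alone, or were N2, the untagged wild type. In the second, whole worms carried snpc-4::3xflag with snpc-1.2(-) at 72 h, snpc-4::3xflag alone at 72 h, snpc-4::3xflag with snpc-1.3(-) at 48 h (the L4 larval stage), or snpc-4::3xflag alone at 48 h, with N2 at each age. In the third, germline nuclei of young adults at 56 h came from snpc-1.1::3xflag or N2, with replicates numbered 2, 3 and 4. Animals were raised at 20 °C in liquid and cross-linked with formaldehyde. The aid tag is a degron that the TIR1 protein recognises when auxin is present, and the sun-1 promoter drives TIR1 in the germline; auxin treatment is not given in the labels. Part of each staged culture was collected at 48 h and the rest was grown on, so libraries of the 2 ages may share cultures. Nothing else in the labels ties replicates to separate cultures, so the spread between libraries may be technical.

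SNPC-4 and the proteins SNPC-1.1 to SNPC-1.3 belong to or are related to subunits of SNAPc, the small nuclear RNA activating protein complex. In animals SNAPc binds the promoters of small nuclear RNA genes, and in C. elegans SNPC-4 also binds the clusters on chromosome IV that make piRNAs, small RNAs that guard the germline. Ribosomal protein genes are transcribed by RNA polymerase II, are among the most active genes of growing cells, and several of them hold small nucleolar RNA (snoRNA) genes in their introns. The files deposited are peak lists, 1 per IP library, so that presence, position and the authors' fold of each peak are known and read depth is not. The lists held 14538 to 16732 peaks in the 12 SNPC-4 libraries, 947 to 4229 in N2 of the same dataset, and 281, 81 and 67 in SNPC-4 AID worms. SNPC-1.2 lists held 9926, 8397 and 4791 peaks and their N2 held 16, 2 and 2. SNPC-1.1 lists held 14912, 1504 and 10238 peaks, against 28 to 1001 in N2 nuclei. Lists of unequal length differ in how many genes they can reach, and that was not separated from binding.

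Most ribosomal protein genes had a SNPC-4 summit close by at both ages, but it usually lay outside the 200 bp limit. The strongest summit found inside a gene or up to 500 bp outside it stood a median of 282, 282 and 283 bp outside the nearer gene end in the 3 SNPC-4 libraries at 72 h, against 288.5, 288 and 291 bp at 48 h. It lay more than 200 bp outside in 64 of 75, 62 of 75 and 62 of 73 genes with a summit at 72 h, and in 63 of 70, 63 of 71 and 63 of 71 at 48 h. In the first 48 h library the quartiles of this distance were 253 and 362 bp. Another protein-coding gene also ended within 200 bp of the strongest summit for 22, 22 and 21 of these members at 72 h, against 18, 20 and 20 at 48 h, so that such a summit cannot be given to 1 gene. For the 70 members with such a summit in all 6 libraries, its median position differed by at most 50 bp between ages in 69. Over all protein-coding genes with a summit in all 6 libraries that share was 89.5%, and the strongest summit stood a median of 132 bp outside at 72 h and 130 bp at 48 h. Summits inside a gene count as negative distances in these medians. At 72 h the strongest summit lay outside the gene in 97.3%, 98.7% and 97.3% of members with one. Over all protein-coding genes it lay outside in 67.2%, 67.7% and 66.9%. The difference between the medians thus includes this difference in summits inside genes. Gene length was not taken into account, and the contrast is a description with no test.

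With the limit widened to 500 bp, nearly every ribosomal protein gene had a SNPC-4 summit. The share was 96.2%, 96.2% and 93.6% at 72 h, against 89.7%, 91.0% and 91.0% at 48 h, while 30.8% to 32.0% of all protein-coding genes at 72 h and 28.3% to 29.3% at 48 h met the same limit. A summit was present in all 3 libraries at 72 h for 73 members (93.6%, against 28.8% of all protein-coding genes) and in all 3 at 48 h for 70 members (89.7%, against 25.5%). The mean difference between ages was 4.70 points at 500 bp. The 71 mitochondrial ribosomal protein genes (mrpl- and mrps-) did not reach this level, at 60.6% for 72 h and 46.9% ± 3.54 for 48 h, whereas the 41 translation initiation and elongation factor genes reached 93.5% ± 1.41 and 84.6% ± 2.82.

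**Figure D1:**
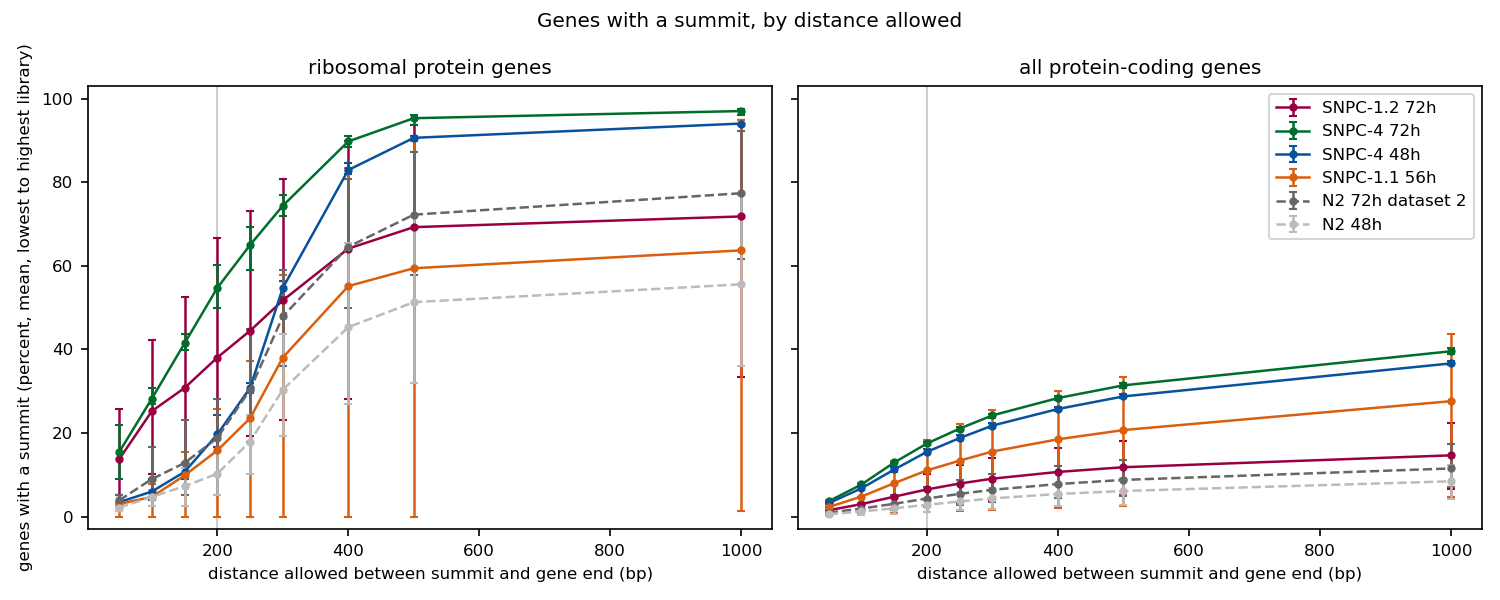
Percent of ribosomal protein genes (left) and of all protein-coding genes (right) with a summit, by the distance in bp allowed between summit and gene end; points are means of 3 libraries and bars run from the lowest to the highest library. SNPC-4 at 72 h and 48 h are apart at 200 bp (54.7% and 19.7%, grey line) and close at 500 bp (95.3% and 90.6%), and N2 climbs between the same distances.

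Under the 200 bp rule, which takes in mostly weaker summits, the ages did differ. At 72 h 60.3%, 50.0% and 53.8% of the 78 genes had a peak in the SNPC-4 libraries, against 24.4%, 16.7% and 17.9% at 48 h. The groups did not overlap, and their means were 54.7% ± 5.18 and 19.7% ± 4.12 (SD, n = 3 each), a difference of 35.0 percentage points. All protein-coding genes averaged 17.5% ± 0.355 and 15.5% ± 0.614, a difference of 1.99 points. At 48 h the mitochondrial ribosomal protein genes averaged 33.8% ± 2.82 and the translation factor genes 51.2% ± 2.44, both above the members. At 72 h the mitochondrial list had 45.1% in each library, and the translation factors 63.4%, 61.0% and 58.5%. Large-subunit genes averaged 52.8% at 72 h and 16.7% at 48 h, and small-subunit genes 57.8% and 24.4%. A peak in all 3 libraries at 72 h and in none at 48 h was found at 14 members, and the reverse at 0; 1.55% and 0.636% of all protein-coding genes met these rules. With the 500 bp limit 3 members had a summit in all 3 libraries at 72 h and in none at 48 h (2.14%). With 3 libraries against 3 an exact permutation test cannot go below p = 0.1, so no single gene was tested between ages.

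The libraries at 72 h listed more low summits near the genes, and the strong outer summit was listed at both ages. Its authors' fold had a median of 8.55 at 72 h and 6.35 at 48 h over the 70 members with a summit in all 6 libraries. The fold was higher at 72 h in 67 of them by the median of 3 libraries (95.7%, against 65.7% of all protein-coding genes), and all 3 values were higher in 51. These folds come from separate lists and were not tested. Taking the nearest summit at 48 h of the 70 members, 64 had a summit within 50 bp of the same place in all 3 libraries at 72 h (91.4%, against 77.1% of all protein-coding genes), and 1 had none. In all, 134, 123 and 132 summits lay inside members or within 500 bp at 72 h, against 95, 86 and 89 at 48 h. Summits inside the genes numbered 24, 16 and 23 at 72 h, against 7, 4 and 5 at 48 h, and their median authors' fold was 1.70, 1.80 and 1.76 at 72 h, against 1.71, 1.57 and 1.45 at 48 h. Summits outside had median folds of 6.54, 6.25 and 7.61 at 72 h, against 6.28, 5.39 and 5.63 at 48 h. Among peaks of fold 3 or more, the 200 bp rule gave 14, 13 and 13 members at 72 h, against 10, 8 and 9 at 48 h, a difference of 5.56 points. Among the rest it gave 33, 26 and 29 members at 72 h, against 9, 5 and 5 at 48 h.

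**Figure D2:**
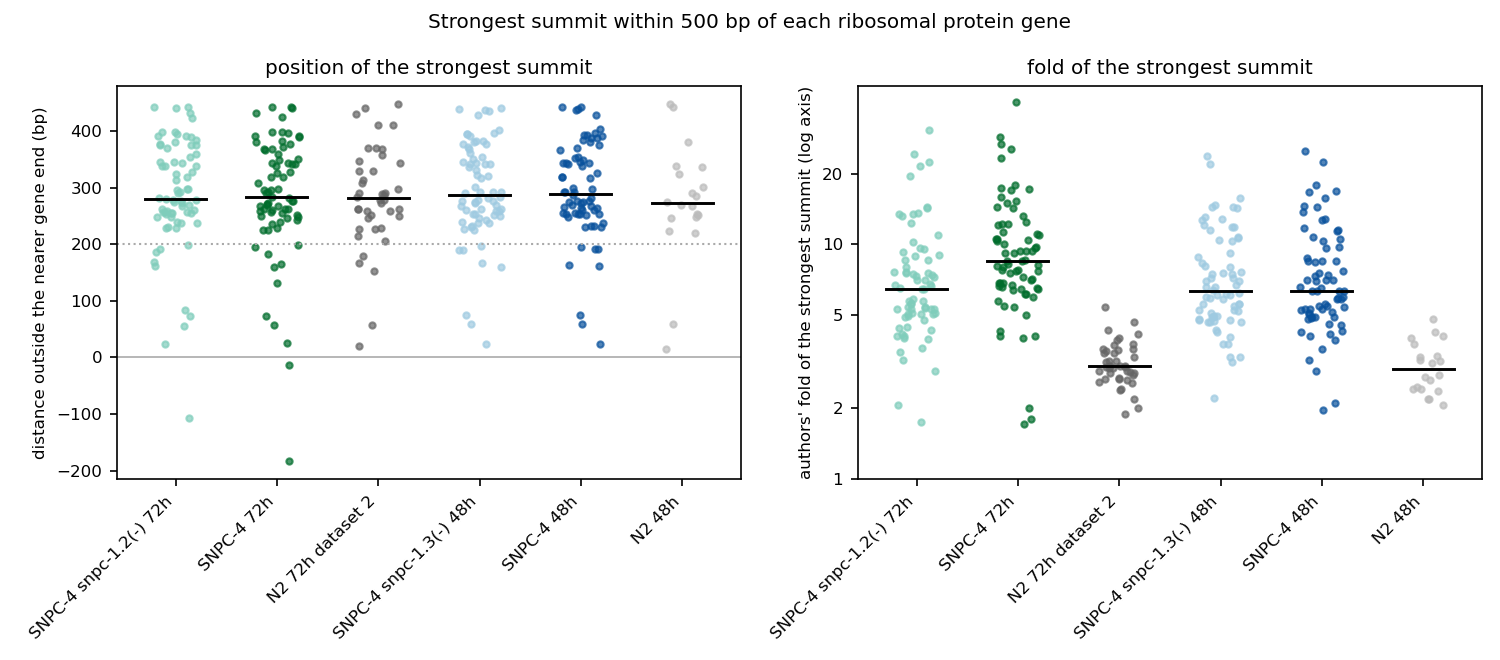
Position (left, bp outside the nearer gene end; negative is inside) and authors' fold (right, log axis) of the strongest summit within 500 bp of each ribosomal protein gene; each point is the median of 3 libraries for 1 gene with a summit in all 3, and the line is the median over genes. The position is near 280 bp in every group, N2 included, and N2 folds lie below SNPC-4 folds.

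The members with a peak in all 3 libraries at 72 h and in none at 48 h had low folds, at most 2.92. Those with the highest median fold were rpl-6, rpl-4, rpl-11.1, rpl-15, rpl-31 and rpl-37A, all large-subunit genes. At rpl-6 the peak had a fold of 2.70, 2.53 and 2.87 at 72 h, while its strongest summit within 500 bp, a median of 341 bp outside at 72 h and 342 bp at 48 h, had 9.62, 8.19 and 9.68 at 72 h against 7.41, 6.34 and 6.11 at 48 h. The strong summit was present at both ages. At rpl-11.1, whose protein contacts 5S ribosomal RNA in the large subunit, the peak had 2.42, 2.09 and 2.92 at 72 h. For 3 of the 14 no summit at 48 h came within 500 bp: rps-27, with folds of 1.69, 1.71 and 2.19 at 72 h, rpl-37A, with 2.13, 1.59 and 2.01, and rps-16, whose strongest summit within 500 bp had 1.53, 2.06 and 1.80. No stronger summit within 500 bp was listed at rps-27 and rpl-37A in those libraries. Just past that limit, all 3 SNPC-4 libraries at 48 h listed a summit, 614 to 622 bp outside rps-27 and 734 to 742 bp outside rpl-37A. N2 had one 583 to 629 bp and 719 to 747 bp outside these genes, in 5 of 12 libraries each. For these 2 genes the absence at 48 h therefore holds for the 500 bp limit only.

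Untagged N2 worms also had peaks at ribosomal protein genes. Within 500 bp, N2 libraries of the second dataset had summits at 71.8%, 57.7% and 87.2% of members at 72 h and at 50.0%, 71.8% and 32.1% at 48 h, against 5.01% to 13.5% and 2.88% to 9.15% of all protein-coding genes. The strongest summit stood a median of 278.5, 276 and 292.5 bp outside at 72 h and 281, 284 and 286 bp at 48 h, the distance seen for SNPC-4. For the 42 members with a summit in all SNPC-4 and N2 libraries at 72 h, the 2 strains' median positions lay within 50 bp of each other in 41 (97.6%, against 82.9% of all protein-coding genes). Within the N2 lists these summits ranked high, above a median of 86.4%, 87.8% and 92.6% of peaks at 72 h and 85.1%, 89.3% and 78.7% at 48 h. SNPC-4 summits ranked above 91.8%, 90.3% and 90.7% of their lists at 72 h and 85.9%, 78.3% and 80.7% at 48 h. Their median folds were 8.53, 7.37 and 9.46 for SNPC-4 at 72 h and 2.71, 2.82 and 4.10 for N2, and 6.80, 5.85 and 6.35 for SNPC-4 at 48 h and 2.44, 2.48 and 2.17 for N2. Each fold belongs to its own list, so the sizes are given side by side only.

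By the 200 bp rule N2 had peaks at 23.1%, 5.13% and 28.2% of members at 72 h and 10.3%, 15.4% and 5.13% at 48 h. SNPC-4 exceeded N2 by 35.9 points at 72 h and by 9.40 points at 48 h without overlap, against 13.2 and 12.7 points over all protein-coding genes. A peak in all 3 SNPC-4 libraries and no N2 library was found at 14 members at 72 h (8.8% of all protein-coding genes) and at 3 members at 48 h (8.69%). Without N2 replicate 2 the 48 h count was 5. With the 500 bp limit the counts were 5 at 72 h (15.8%) and 11 at 48 h (16.3%). At 72 h the first 8 by fold were rpl-29, rpl-3, rps-18, rpl-26, rps-5, rpl-15, rpl-37A and rpl-38, with median folds between 6.43 at rpl-29 and 1.90 at rpl-38. At 48 h they were rpl-18, rpl-29 and rps-18. Of the 8 named at 72 h, rpl-3, rpl-26 and rpl-15 had a summit within 500 bp in all 3 N2 libraries of that age. There N2 had one in 2 libraries at rpl-29 and rpl-38, in 1 at rps-5 and in none at rps-18 and rpl-37A. For those with an N2 summit the absence of N2 holds for the 200 bp limit only. The comparison of SNPC-4 at 72 h with N2 and that of the 2 ages share the SNPC-4 libraries at 72 h. When the lists were shortened by q value to the shortest of each comparison, both differences turned, to -2.99 points at 72 h and -1.28 points at 48 h. All protein-coding genes turned as well, with 1.54% for SNPC-4 against 2.5% for N2 at 72 h and 0.667% against 1.37% at 48 h.

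**Figure D3:**
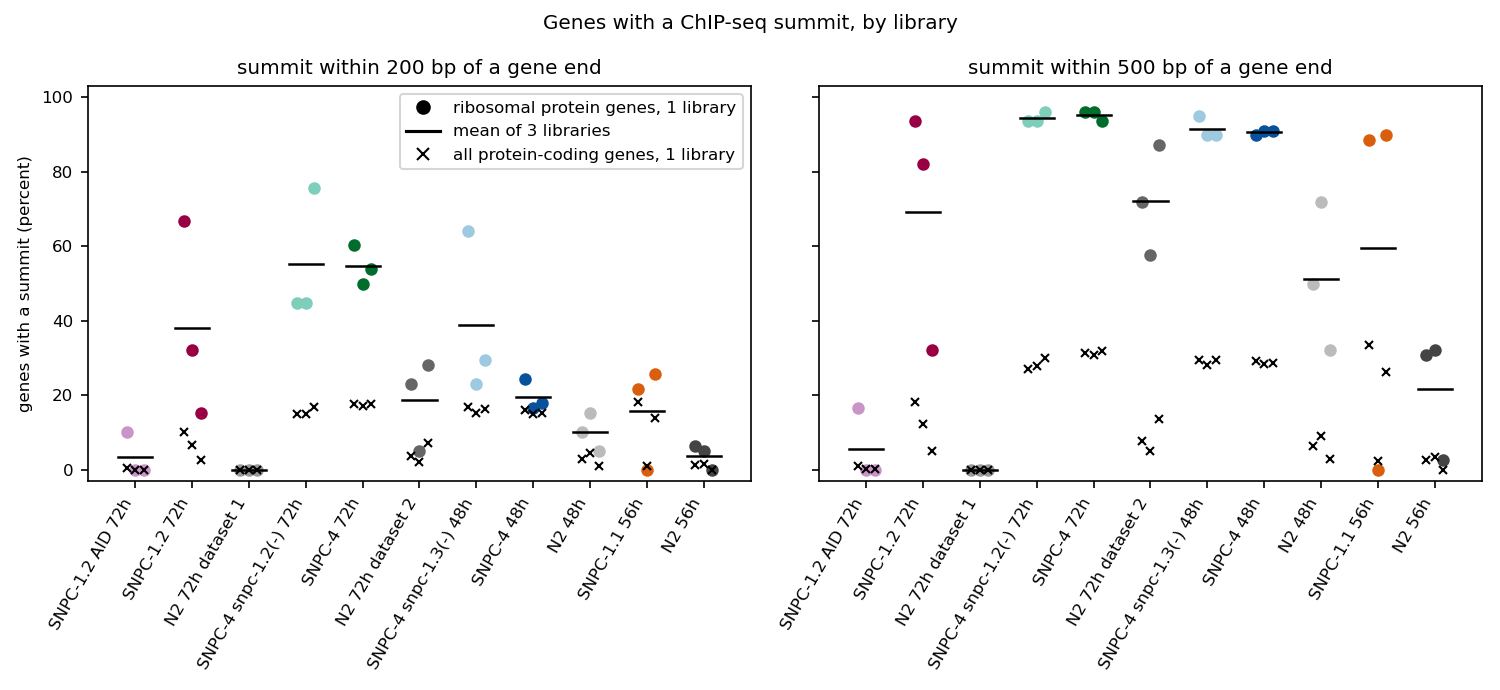
Percent of genes with a summit within 200 bp (left) and 500 bp (right) of a gene end in each of the 33 IP libraries; coloured points are ribosomal protein genes, black lines their group means and crosses all protein-coding genes. At 500 bp the 12 SNPC-4 libraries lie between 89.7% and 96.2%, above their N2 libraries.

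By the 200 bp rule, ribosomal protein genes passed the broader test of tagged against N2 libraries at a share near that of all protein-coding genes. The exact two-sided permutation test over 4 pairs of groups (SNPC-1.2, SNPC-4 at both ages and SNPC-1.1, each with its N2; 12 libraries a side, adjusted over all annotated genes) called 9 members higher in tagged libraries, 11.5% of the 78, while 10.6% of all protein-coding genes were called; 15 members had an unadjusted p under 0.05. It called 0 members lower (0.005% of all protein-coding genes), with 0 at an unadjusted p under 0.05. The 9 were rpl-29, rps-18, rpl-18, rps-5, rps-13, rpl-10a, rps-4, rpl-26 and rpl-3. Without SNPC-1.2 replicate 3 the test called 14. With the 500 bp limit it called 30 of the 78 members, against 22.3% of all protein-coding genes. Of the 9, rpl-3, rpl-10a and rps-13 were not called at 500 bp. There a summit was listed in 11 tagged libraries for each, and in 9, 8 and 7 N2 libraries. With regions that overlap the gene or its flanks it called 43 of the 78, against 26%. The test of SNPC-4 against N2 alone called rpl-29 and rps-18 (adjusted p = 0.0284 each by the exact permutation test, where 5.18% of all protein-coding genes were called), and rps-18 alone at 500 bp (adjusted p = 0.0148, 10.7% called). Adjusted over protein-coding genes alone, the SNPC-4 test called 0 members, and with 1 summit per region, that of highest fold, both tests called 0.

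At rpl-29 (IV:13882225-13882618, a small large-subunit protein) and rps-18 (IV:14825679-14826419, a protein of the small subunit's head) the 200 bp rule found a peak in 11 of 12 and 9 of 12 tagged libraries and in 0 of 12 N2 libraries each. The rpl-29 peak had a fold of 6.43, 6.22 and 8.85 for SNPC-4 at 72 h and 3.87, 3.29 and 3.92 at 48 h. A farther summit, a median of 270 bp outside at 72 h and 268 bp at 48 h, had 40.4, 34.2 and 42.7 at 72 h and 24.9, 23.1 and 25.4 at 48 h. There N2 was not empty, with 2.63 and 5.41 in 2 libraries at 72 h and 2.19 in 1 library at 48 h. At rps-18 the fold was 4.07, 3.74 and 5.30 for SNPC-4 at 72 h and 2.22, 1.92 and 1.97 at 48 h. No N2 library had a summit within 500 bp of rps-18, the only member of which that was true while all 12 SNPC-4 libraries had one. Just past that limit N2 was not empty, with a nearest summit 536 to 598 bp outside the gene in 9 of 12 libraries. In 2 SNPC-1.1 libraries the nearest summit stood 579 and 580 bp outside, and in 2 libraries of their N2 551 and 541 bp. The absence of N2 at rps-18 therefore holds for the 500 bp limit only.

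Of the 6 members found in most libraries by the 200 bp rule, rpl-12, rpl-7A, rps-12, rpl-18 and rpl-27 had in each SNPC-4 library at 72 h and 48 h their strongest summit inside the limit, while that of rps-4 stood a median of 268 bp outside at 72 h and 275 bp at 48 h. A peak at rpl-12 (IV:13239587-13240651, a protein of the base of the ribosomal stalk) was present in 26 of 33 libraries, 18 tagged and 8 N2. Its tagged summits spanned 41 bp, and its folds were 15.8, 14.1 and 16.3 for SNPC-4 at 72 h against 3.49, 3.71 and 6.16 in N2, and 12.9, 12.8 and 11.1 for SNPC-4 at 48 h against 3.13, 3.19 and 2.81 in N2. In N2 the gene had a peak in all 3 libraries at each age. Then came rpl-7A and rps-12 with 23 libraries each, rpl-18 with 21, rpl-27 with 21 and rps-4 with 21. At rpl-7A (IV:4389143-4390590, large subunit), with a summit a median of 58 bp outside at 72 h, folds were 17.5, 16.9 and 17.3 for SNPC-4 at 72 h against 3.45, 3.30 and 6.12 in N2.

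At rpl-18 (IV:13777865-13778809, large subunit) the tagged summits spanned 15 bp, a median of 165.5 bp outside the gene. Its folds were 26.9, 23.4 and 28.5 for SNPC-4 at 72 h against 2.64, 2.59 and 3.49 in N2, and 17.7, 17.9 and 17.9 at 48 h, where no N2 library had a peak. It was the 1 member with a peak in all 3 N2 libraries at 72 h and in none at 48 h, a rule met by 0.155% of all protein-coding genes. N2 as a whole had 18.8% ± 12.1 of members at 72 h and 10.3% ± 5.13 at 48 h, with overlapping values. Members with a peak in all 3 N2 libraries were rpl-12, rpl-7A, rps-12 and rpl-18 at 72 h, and rpl-12 and rpl-7A at 48 h.

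**Figure D4:**
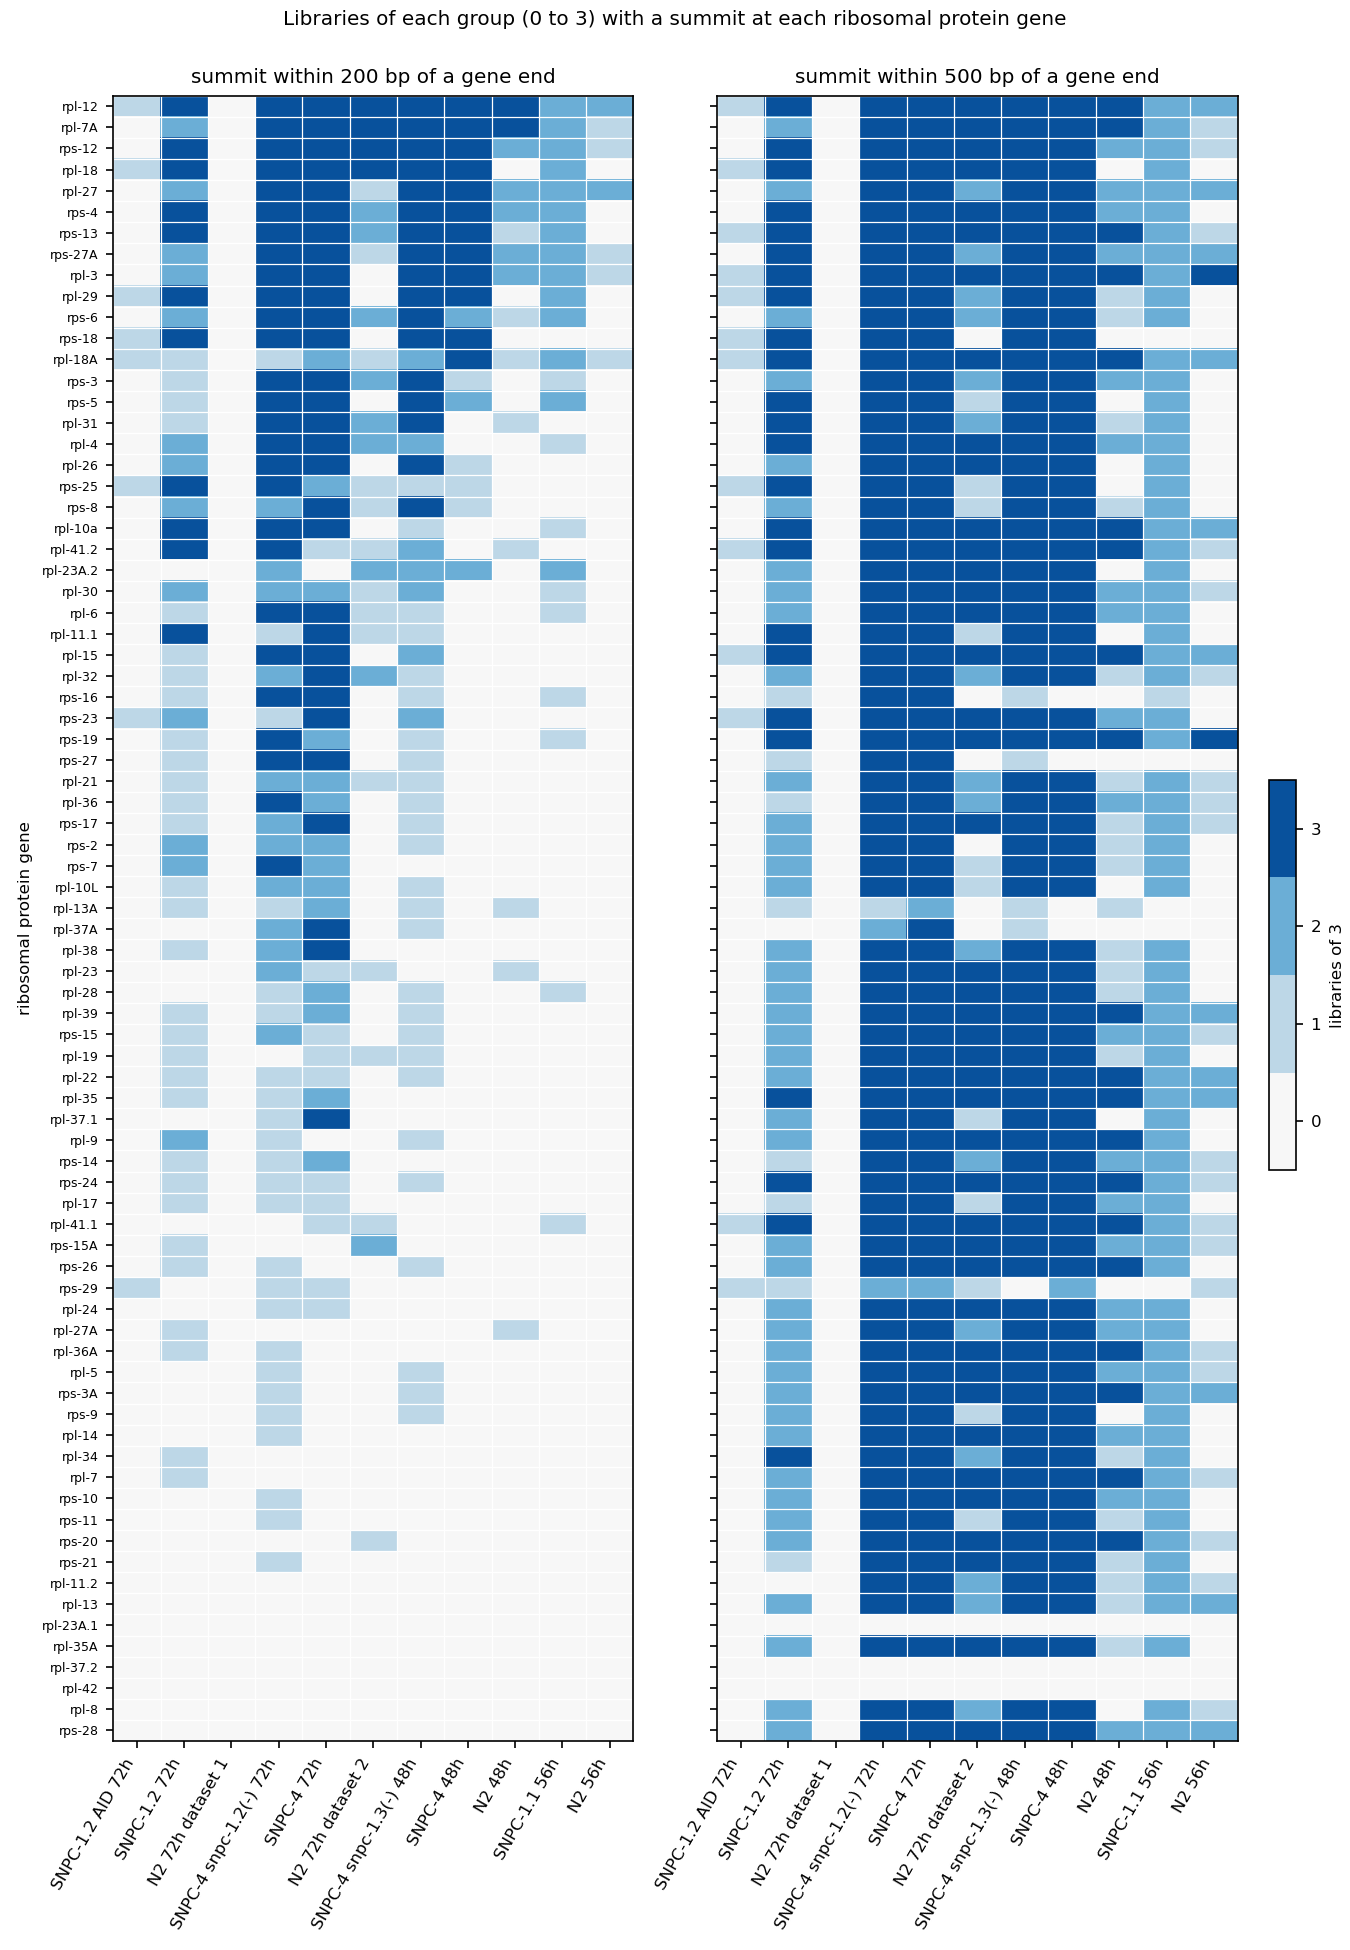
Number of libraries of each group, 0 to 3, with a summit within 200 bp (left) or 500 bp (right) of each of the 78 ribosomal protein genes, ordered by the number of libraries at 200 bp. Columns of SNPC-4 groups are filled for most genes at 500 bp, and 3 genes (rpl-23A.1, rpl-37.2 and rpl-42) are empty in all groups.

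There were 8 members with no peak by the 200 bp rule in any library, and 5 of them had SNPC-4 summits beyond it. These were rpl-8, rpl-11.2, rpl-13, rpl-35A and rps-28, each with a summit within 500 bp in all 12 SNPC-4 libraries. N2 had one there too, in 3, 4, 5, 4 and 7 libraries in the same order. At rpl-8 the SNPC-4 fold was 6.13, 5.20 and 6.96 at 72 h and 4.84, 4.52 and 4.91 at 48 h. The 3 genes rpl-23A.1, rpl-37.2 and rpl-42 had no summit within 500 bp in any of 33 libraries. Just past that limit rpl-42 had a SNPC-4 summit, 594 to 618 bp outside in 3 libraries at 72 h and 649 bp outside in 1 at 48 h. Copies with close relatives differed: rpl-37.1 had a summit within 500 bp in 17 libraries and rpl-23A.2 in 19, but near-identical copies can divide or lose reads, and how the authors placed such reads is not given in the sources used here. The 2 X-linked members were rpl-23A.1 and rpl-11.2. The rpl-11.2 summit had SNPC-4 folds of 5.00, 4.95 and 5.77 at 72 h against 5.38, 4.73 and 5.28 at 48 h and no summit in any SNPC-1.2 library, while its relative rpl-11.1 on chromosome V had a SNPC-1.2 summit in 3 of 3. SNPC-1.2 marked 0.256% of X-linked and 7.48% of autosomal protein-coding genes by the 200 bp rule.

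Summits at a similar distance were listed for the SNPC-1 proteins, whose positions were not compared with SNPC-4 gene by gene. In SNPC-1.2 libraries 93.6%, 82.1% and 32.1% of members had a summit within 500 bp, in the order of list length, against 18.1%, 12.2% and 5.06% of all protein-coding genes, and the strongest stood a median of 276, 279 and 251 bp outside. In N2 of that dataset 0 of 78 members had one, with lists of at most 16 peaks. By the 200 bp rule SNPC-1.2 marked 66.7%, 32.1% and 15.4% of members and N2 none, a mean of 38.0% ± 26.2 (SD, n = 3). Those N2 libraries had a peak at 3, 0 and 0 protein-coding genes by the 200 bp rule. Absence from them was therefore nearly fixed in advance, and the counts that follow mostly give presence in the SNPC-1.2 libraries. With the 500 bp limit 24 members had a peak in each SNPC-1.2 library and no N2 library (4.51% of all protein-coding genes). By the 200 bp rule there were 23 without replicate 3, and 11 with all libraries (1.87%). Ordered by fold, the first 8 were rpl-18 (15.4, 16.4 and 8.90), rpl-29, rpl-12, rps-18, rps-25, rps-12, rps-4 and rps-13 (3.90, 2.99 and 2.61). The other 3 were rpl-11.1, rpl-10a and rpl-41.2. Of the 11 genes 6 lie on chromosome IV, as do 17 of the 78 members. Of the 24 members with a peak in at least 2 SNPC-1.2 libraries, 22 also had one in at least 2 SNPC-4 libraries at 72 h, 91.7% of the SNPC-1.2 genes and 50% of the 44 SNPC-4 genes. Over all protein-coding genes these shares were 93.5% and 32.2%.

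In germline nuclei, SNPC-1.1 summits lay within 500 bp of 88.5%, 0% and 89.7% of members, against 30.8%, 32.1% and 2.56% in N2 nuclei. Replicate 3, with 1504 peaks, had none, where 2.48% of all protein-coding genes had one. In the other 2 libraries the strongest summit stood a median of 291 and 292.5 bp outside with median folds of 7.53 and 6.05. Within 200 bp the shares were 21.8%, 0% and 25.6%, against 6.41%, 5.13% and 0% in N2, so the groups overlapped, and 0 members (0.41% of all protein-coding genes) had one in each SNPC-1.1 library and no N2 library; without replicate 3 there were 7. All 14 members with a peak in both other libraries had one in at least 2 SNPC-4 libraries at 48 h (93.3% of 15). Over all protein-coding genes these shares were 81.9% and 64.7%. The 3 tagged proteins come from different tissues, ages and preparations, and were not tested against each other.

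In SNPC-4 AID worms SNPC-1.2 peaks at ribosomal protein genes were mostly lost from the lists. Within 500 bp, 16.7%, 0% and 0% of members had a summit, against 93.6%, 82.1% and 32.1% in SNPC-1.2 worms. By the 200 bp rule the shares were 10.3%, 0% and 0% in SNPC-4 AID worms, against 66.7%, 32.1% and 15.4%, a mean difference of -34.6 points, and -6.27 points over all protein-coding genes. The groups did not overlap, but with lists shortened to 67 peaks the difference was 0.427 points. At 6 members each SNPC-1.2 library and no SNPC-4 AID library had a peak: rps-12, rps-4, rps-13, rpl-11.1, rpl-10a and rpl-41.2 (1.53% of all protein-coding genes), with 11 such members without SNPC-4 AID replicate 1, 17 without SNPC-1.2 replicate 3 and 12 with the 500 bp limit (3.66%). The 8 members that replicate 1 of the SNPC-4 AID worms still listed included rpl-29, with 3.53 in that library against 8.97, 6.79 and 7.99 in SNPC-1.2 worms, and rps-18, with 3.18 against 8.61, 6.06 and 6.97.

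Loss of snpc-1.3 at 48 h gave 94.9%, 89.7% and 89.7% of members with a SNPC-4 summit within 500 bp, against 89.7%, 91.0% and 91.0% in SNPC-4 worms. The strongest summit kept its position within 50 bp in 70 of 70 members, and in 94.9% of all protein-coding genes. The 200 bp shares were 64.1%, 23.1% and 29.5% in snpc-1.3(-), against 24.4%, 16.7% and 17.9%, a difference of 19.2 points with overlapping groups, and 6.62 points without snpc-1.3(-) replicate 1. In that library 22 summits lay inside members, against 3 and 5 in the other snpc-1.3(-) libraries, and its nearest summits stood a median of 144.5 bp from a gene end, against 262 and 251.5 bp. Of its 50 members 39 were among the 44 of SNPC-4 at 72 h (78% and 88.6%), while over all protein-coding genes these shares were 82% and 79.3%. The 1 member with a peak in all 3 snpc-1.3(-) and no SNPC-4 library was rpl-31 (2.91, 1.46 and 1.92; 0.125% of all protein-coding genes), and 0 showed the reverse (0.0801%); leaving out 1 library raised the first count to as many as 6, and at 500 bp it was 0 (0.1%).

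Loss of snpc-1.2 at 72 h gave percents that overlapped those of SNPC-4 worms by either limit. Within 500 bp 93.6%, 93.6% and 96.2% of members had a SNPC-4 summit in snpc-1.2(-), against 96.2%, 96.2% and 93.6% in SNPC-4 worms. The strongest summit had a median authors' fold of 6.48 in snpc-1.2(-) and 8.50 in SNPC-4 worms over the 72 members with a summit in all 6 libraries. By the median of 3 libraries it was higher in snpc-1.2(-) in 3 of the 72 (4.17%, against 23.3% of all protein-coding genes). All 3 snpc-1.2(-) values lay below all 3 SNPC-4 values in 5 of the 72 and above them in 1. Over protein-coding genes these counts were 1196 and 250 of 5724. Library medians over members were 5.72, 5.83 and 8.66 in snpc-1.2(-), against 8.53, 7.37 and 9.46 in SNPC-4 worms. These values come from separate lists and were not tested. By the 200 bp rule the shares were 44.9%, 44.9% and 75.6% in snpc-1.2(-), against 60.3%, 50.0% and 53.8%, a difference of 0.427 points with overlapping groups. Without snpc-1.2(-) replicate 3 the difference was -9.83 points and without SNPC-4 replicate 2 it was -1.92 points, so no direction is given. No member had a peak in all 3 libraries of one group and in none of the other (0.17% and 0.631% of all protein-coding genes met these rules).

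Genes with a snoRNA or other short RNA gene within 500 bp numbered 20 of the 78. SNPC-4 marked 55.0% of these 20 at 72 h and 26.7% at 48 h, against 54.6% and 17.2% of the other 58, by the 200 bp rule. The 8 found in most libraries were rpl-7A, rps-12, rps-4, rps-13, rps-27A, rpl-4, rpl-26 and rpl-6, each overlapping a snoRNA gene in the annotation. The 5 members inside the piRNA clusters of chromosome IV, rpl-18A, rps-25, rpl-18, rpl-29 and rps-18, were marked at 86.7% ± 11.5 by SNPC-4 at each age and by SNPC-1.2, against 54.7%, 19.7% and 38.0% of all members. Without them the difference between ages was 37.4 points. The share of all protein-coding genes inside the clusters was not taken. The values of these 5 members therefore cannot be told apart from those of other genes there.

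Ribosomal protein genes outside the symbol rule were covered unevenly. Of rplp-0, rplp-1, rplp-2.1 and rplp-2.2 (acidic stalk proteins), ubq-2 (a ubiquitin fusion) and rack-1 (a scaffold on the small subunit), only rplp-1 had a SNPC-4 peak within 200 bp in all 3 libraries at 72 h, with 1 of 3 at 48 h. For rplp-2.2 the counts were 2 of 3 and 0 of 3, and for rplp-0 also 2 and 0. In N2 of the same dataset rplp-1 had a peak in 1 of 3 libraries at 72 h and 2 of 3 at 48 h. N2 had none at rplp-2.2 and rplp-0. The symbols rla-0, rla-1, rla-2 and ubl-1 were not matched in the annotation table.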

How the data were processed

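Per the submitters' processing notes, peaks were called with MACS2 2.1.2 and deepTools was used, on genome build WBcel235; aligner, read filters and thresholds are not given in the sources used here. The authors deposited 1 narrowPeak list per IP library, called against its own input, with no pooling of replicates in the lists. Each list gives the authors' fold of IP over input (a ratio) and the -log10 q-value of each deposited peak, and the summit's offset within its region. Reads were 50-bp pairs, per the labels. Read depth is not in the lists, so no counting interval is given, and 3 libraries a group limit the precision.

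Gene positions came from the WBcel235 RefSeq gene table, which has no strand, exons or sequence; no sequences were used here. A gene had a peak where 1 or more summits fell at most 200 bp from one of its ends. Percentages over the 78 members are described as mean ± SD over libraries, beside all protein-coding genes. Single genes were tested by exact two-sided permutation of tagged and N2 labels within each pair of groups, with Benjamini-Hochberg adjustment over 46926 genes and a threshold of 0.05 (Python 3.11.15, pandas 2.3.3, numpy 2.4.6, scipy 1.17.1). On simulated data the 4-pair test called 119 of 200 changed genes and 0 unchanged ones. Positions outside a gene are distances to the nearer end. No 2 lists shared more than 12.5% of their summit positions, so no library was counted as deposited more than once.

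Genes were named by these rules: up to 8 by median fold with a peak in all 3 tagged libraries and in no N2 library; up to 6 in each direction with a peak in all 3 libraries of one group and in none of the other; up to 6 with a peak in all 3 N2 libraries; the 6 in most libraries and those in none; up to 8 with a short RNA gene within 500 bp; and ribosomal protein genes outside the symbols. The rplp- genes replaced rla-0, rla-1 and rla-2, which were not matched. The genes rpl-8, rpl-11.2, rpl-13, rpl-35A and rps-28 fall under the rule for no peak in any library. Relatives named beside them (rpl-37.1, rpl-23A.2) and genes called by the tests were chosen after their values were seen. The members, gene lists, windows and tests were chosen with earlier results of these data known. The window of 300 bp, the profile over windows and the exclusion of the piRNA clusters (IV:4500000-7000000 and IV:13500000-17200000) were added after seeing the data. The description of N2 dataset 3 replicate 2 names another protein; it was used as titled. Alternatives were windows, region overlap, fold of 3 or more, 1 summit per region, lists shortened by q-value, members without short RNA genes, other adjustment, replicate block and leaving out each library.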

Additional observations from a re-analysis of the deposited data

How the results depend on the processing

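The 200 bp limit decided most values at ribosomal protein genes, and where a value moved the cause was not tested beyond what an alternative's own construction gives. With 500 bp the difference in the percent of members was 4.70 points for SNPC-4 at 72 h against 48 h, 23.1 against N2 at 72 h, 39.3 against N2 at 48 h, 69.2 for SNPC-1.2 and 37.6 for SNPC-1.1 against N2, -63.7 for SNPC-4 AID against SNPC-1.2, 20.9 for N2 at 72 h against 48 h and -0.855 for snpc-1.2(-). With 300 bp SNPC-4 at 72 h against 48 h gave 19.7 points and SNPC-4 against N2 at 48 h gave 24.4. With regions that overlap the gene or its flanks the values were 7.69 for the ages, 47.0 for SNPC-4 at 48 h, 65.0 for SNPC-1.2 and 41.5 for SNPC-1.1, each against N2, and -3.85 for snpc-1.2(-). With 1 summit per region they were 21.4 for the ages and 19.2 for SNPC-4 against N2 at 72 h, and with folds of 3 or more 5.56 and 12.8. With shortened lists they were 24.8 for the ages, -2.99 and -1.28 for SNPC-4 against N2 at 72 h and 48 h, 0 for SNPC-1.2 and 0 for SNPC-1.1 against N2, 0.427 for SNPC-4 AID, 0.427 for N2 at 72 h against 48 h, and 11.1 for snpc-1.2(-). The differences of SNPC-4 from N2 turned over all protein-coding genes as well. Leaving out members in the piRNA clusters, or those near short RNA genes, kept the direction of all 9 differences.

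Counts of members with a peak in all 3 libraries of one group and in none of the other moved further. At 500 bp 2.14% of all protein-coding genes met the rule for the ages, 4.51% for SNPC-1.2 and 3.66% for SNPC-4 AID. For SNPC-4 against N2 the shares there were 15.8% at 72 h and 16.3% at 48 h. By region they were 2.28% for the ages, 18.6% for SNPC-4 at 48 h, 4.8% for SNPC-1.2 and 3.9% for SNPC-4 AID. Counts under the remaining settings have no share beside them and are not set against other genes. For SNPC-4 at 72 h against 48 h the 14 became 3 at 500 bp, 4 by region, 7 with 1 summit per region, 9 with shortened lists and 2 at folds of 3 or more, while the reverse count was 1 with 1 summit per region. For SNPC-4 against N2 at 72 h the 14 became 5 at 500 bp, 8 with 1 summit per region, 0 with shortened lists and 6 at folds of 3 or more. For SNPC-4 at 48 h the 3 became 11 at 500 bp, 19 by region, 1 with 1 summit per region, 1 with shortened lists and 5 at folds of 3 or more. For SNPC-1.2 against N2 the 11 became 24, 21, 4, 0 and 7 under the same settings. For SNPC-4 AID the 6 lost became 12 at 500 bp, 10 by region, 3 with 1 summit per region, 0 with shortened lists and 3 without members near short RNA genes. For snpc-1.3(-) the 1 gained became 0 at 500 bp, 0 by region, 0 at folds of 3 or more and 2 with shortened lists. For snpc-1.2(-) 1 was lost by region and 1 gained with shortened lists. The 4-pair test called 30 members at 500 bp, 43 by region, where it called 26% of all protein-coding genes, and 0 with 1 summit per region. The SNPC-4 test called 1, 17 (19.1% of all protein-coding genes) and 0, and 0 when adjusted over protein-coding genes.

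Replicate numbers were not used to pair libraries: in no comparison did every same-numbered pair of libraries correlate above 0.1 in its deviations over genes. This rule cannot show that pairing was absent. For SNPC-4 at 72 h against 48 h the same-numbered pairs had 0.0464, 0.00502 and 0.0134, and other pairs ran from -0.0318 to 0.0181. With the replicate block the 4-pair test called 5 and the SNPC-4 test 0. Counts by same-numbered pairs, a looser rule, were 7 for SNPC-1.1 and 24 for SNPC-1.2, each against N2. For SNPC-4 against N2 they were 7 at 48 h and 29 at 72 h. Between ages 29 were gained and 1 lost, and 23 were lost in SNPC-4 AID. In snpc-1.3(-) 9 were gained, and in snpc-1.2(-) 2 were gained and 3 lost. Shares of all protein-coding genes with the replicate block are not given, so these counts are not set against other genes.

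Leaving out 1 library at a time, the differences ranged between 32.3 and 37.4 points for the ages of SNPC-4, 29.1 and 40.6 for SNPC-4 against N2 at 72 h, 6.84 and 12.0 at 48 h, 23.7 and 49.4 for SNPC-1.2, 7.05 and 19.9 for SNPC-1.1, -45.9 and -20.3 for SNPC-4 AID, 3.85 and 15.4 for N2, 6.62 and 27.1 for snpc-1.3(-), and -9.83 and 5.56 for snpc-1.2(-), where it was also -1.92 without SNPC-4 replicate 2. Counts ranged between 14 and 20 gained and 0 and 1 lost (without SNPC-4 48 h replicate 3) for the ages, 14 and 20 for SNPC-4 against N2 at 72 h, 3 and 5 at 48 h, 11 and 23 for SNPC-1.2, 0 and 7 for SNPC-1.1, 6 and 17 lost for SNPC-4 AID, and 1 and 6 gained and 0 and 0 lost for snpc-1.3(-), the 6 without snpc-1.3(-) replicate 2 and 4 without SNPC-4 48 h replicate 1. For snpc-1.2(-) they were 0 and 1 gained, the 1 without snpc-1.2(-) replicate 1 or SNPC-4 replicate 1, and 0 and 2 lost, 1 without its replicate 2 and 2 without its replicate 3. The 4-pair test called between 8 and 14 members and the SNPC-4 test between 2 and 3. Shares of all protein-coding genes with 1 library left out are not given here or above, so these counts are not set against other genes. The number of peaks in a list limits which members can be found: SNPC-4 AID replicates 2 and 3, N2 of the first dataset and SNPC-1.1 replicate 3 listed 0 members at 500 bp.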
